A study of Caenorhabditis elegans with 2 samples.

Results

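Binding of LIN-29 at 9 Caenorhabditis elegans genes that drive or brake the cell cycle was examined in L4 larvae: cki-1, cki-2, fzr-1, lin-35, efl-1, dpl-1, cyd-1, cdk-4 and cye-1. They were taken by name, and all 9 are among the 19973 protein-coding genes of the annotation used. The measurement was chromatin immunoprecipitation with sequencing (ChIP-seq), which enriches the DNA that a chosen protein occupies. The series has 1 group of 2 biological replicates of strain RW12227, in which CRISPR placed a TY1::EGFP::3xFLAG tag on the animal's own lin-29 gene on chromosome II. The animals were 49 hours old, came from larvae that had hatched and starved after bleaching, and were processed whole. The sample descriptions give an antibody against GFP, while the antibody tag names lin-29. There is no second genotype, stage or treatment, and no input or control precipitation was analysed here. In whole animals, binding in more cells and stronger binding per cell cannot be told apart.

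LIN-29 is a zinc finger transcription factor at the end of the heterochronic pathway, which times development. It is known for turning the larval epidermis into an adult one, a step at which the stem cell-like seam cells stop dividing. A cell leaves the cycle when cyclin-dependent kinases are held off by inhibitors, when the retinoblastoma protein and E2F keep S-phase genes silent, and when the anaphase-promoting complex destroys cyclins. The 9 genes cover these layers: the kinase inhibitors CKI-1 and CKI-2, the anaphase-promoting complex activator FZR-1 (Cdh1), the retinoblastoma homologue LIN-35 with the E2F and DP subunits EFL-1 and DPL-1, and the G1 kinase CDK-4 with cyclins D (CYD-1) and E (CYE-1). The cyclins and CDK-4 push cells into the cycle, so the set holds targets of the brakes as well as brakes.

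Of the 9 genes, 3 carried a LIN-29 site: the retinoblastoma gene lin-35, the E2F gene efl-1 and the cyclin E gene cye-1. They held 4 sites in all, since cye-1 had 2. A site is a peak kept at an irreproducible discovery rate (IDR, the expected share of peaks whose rank does not repeat between 2 inputs) of up to 0.01, with its summit between 2000 bp upstream of the gene's 5′ end and its 3′ end. In the pooled list, which the authors made from both replicates, 33.3% of these 9 genes had such a site, against 4.61% of all protein-coding genes (920 of 19973). The lists were chosen with earlier results known and 9 genes are few, so no test is attached to that count. Some other ways of assigning sites left fewer of the 9, and fewer of all genes too. In replicate 1's own list 2 of them had a site (efl-1 and lin-35), against 2.94% of all protein-coding genes, and in replicate 2's own list 2 (cye-1 and lin-35), against 2.22%. Within 500 bp of the 5′ end efl-1 and lin-35 remained, against 2.08%. The same 3 genes had a site in the authors' conservative list (4.39% of all genes), among the stronger 428 pooled sites (2.54%), at the highest score (3.53%), at an IDR of up to 0.05 (7.57%), with 1000 bp upstream (3.76%), by any overlap of the peak (4.91%) and with RefSeq gene ends (4.57%). In replicate 2's own list, the conservative list, the stronger 428 sites and at the highest score, cye-1 stayed only through its intronic site. The summit of that site lies on a tRNA gene. The kinase inhibitors cki-1 and cki-2, the Cdh1 gene fzr-1, the DP gene dpl-1 and both cyclin D-CDK-4 genes had no site.

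**Figure D1:**
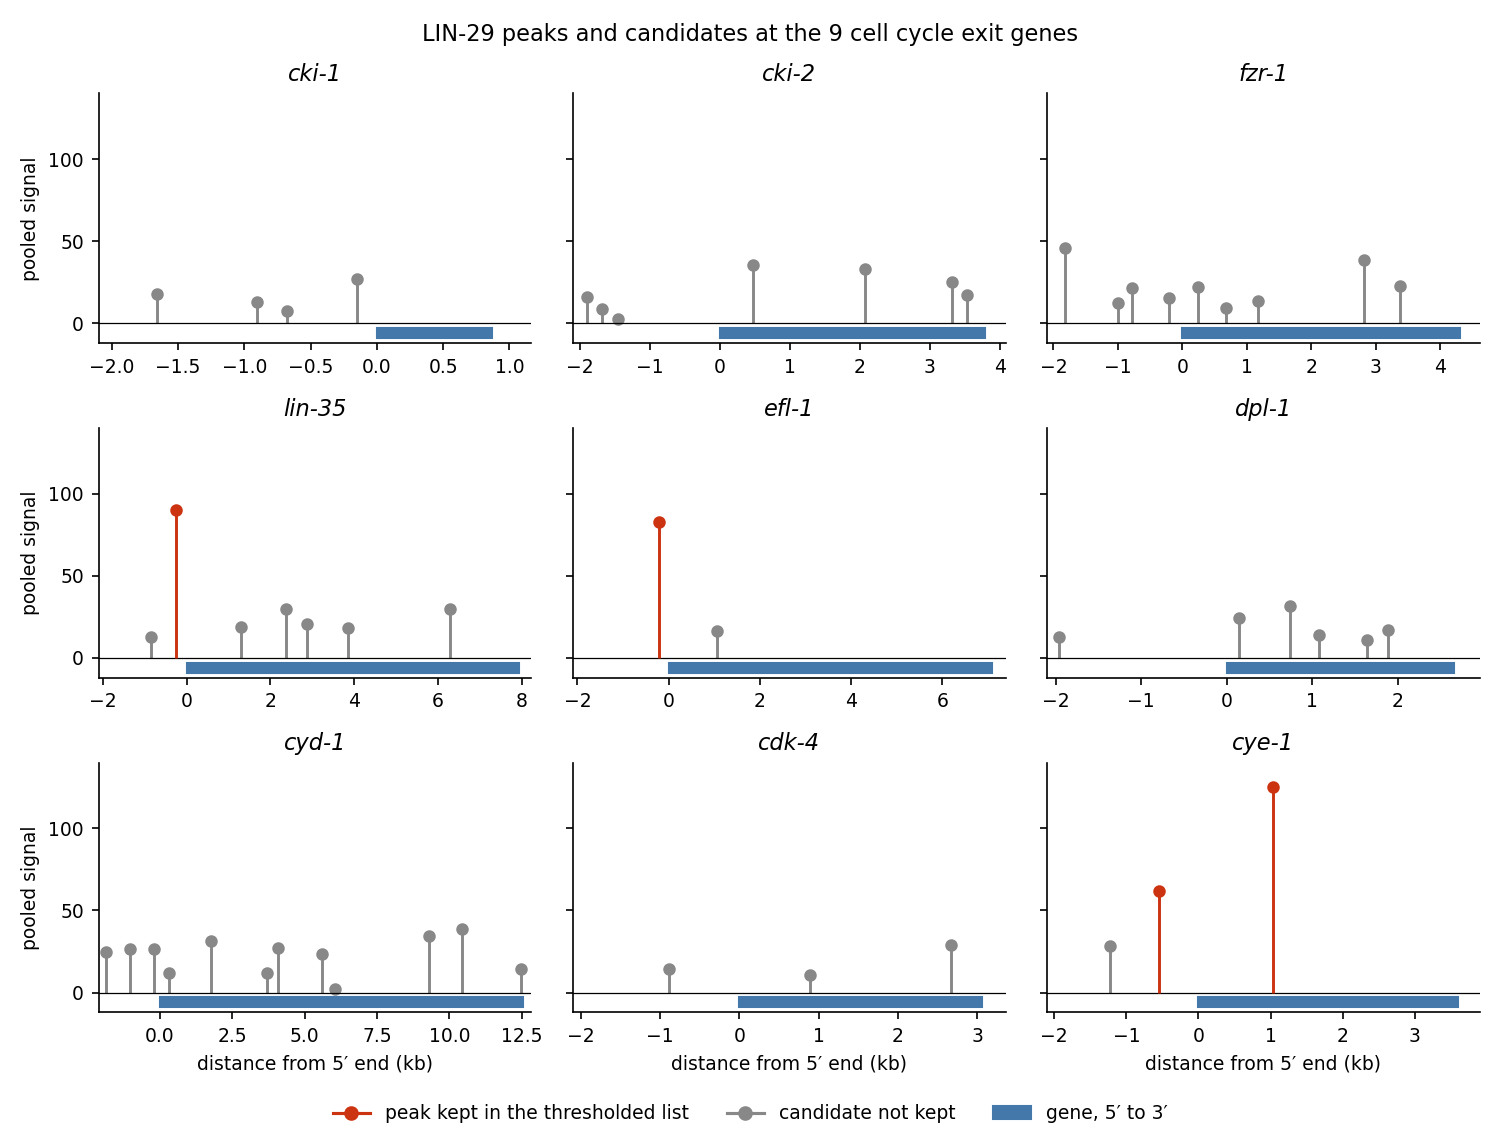
Each panel is 1 gene, with the distance of every pooled candidate's summit from the gene's 5′ end in kb on the x axis and its pooled signal on the y axis; the bar below 0 is the gene. Red marks the 4 peaks kept in the thresholded list, with signals of 61.5 to 125, and grey the 49 candidates that were not kept, none of which exceeds 45.7.

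The sequence of the efl-1 peak is shown because its summit lies nearest to the 5′ end of efl-1 itself. Those of cki-1 and fzr-1 are the strongest candidates, not kept, at each of these genes. The other inhibitor gene, cki-2, had a stronger candidate (35.6 against 27.2 at cki-1). The fzr-1 candidate lies nearer to the 5′ end of sqv-8 (695 bp). Among the strongest candidates of the genes without a site, it alone holds ACGCAG or TTCCCGC within 50 bp of its summit. The efl-1 peak is not typical of the 4 sites: it alone holds ACGCAG or TTCCCGC within 50 bp of its summit. Each is read 5′ to 3′ along its gene's own strand, from the RefSeq sequence of WBcel235, the assembly that ce11 names. Capitals mark the letters TTCCCGC, one form of the recognition sequence of E2F, and ACGCAG, read on either strand. The efl-1 sequence is the whole peak on the minus strand (chrV:16965751-16966040), and the other two are shorter, 50 bp either side of the summit, on the plus strand for cki-1 (chrII:7811036-7811136) and on the minus strand for fzr-1 (chrII:9646233-9646333).
efl-1: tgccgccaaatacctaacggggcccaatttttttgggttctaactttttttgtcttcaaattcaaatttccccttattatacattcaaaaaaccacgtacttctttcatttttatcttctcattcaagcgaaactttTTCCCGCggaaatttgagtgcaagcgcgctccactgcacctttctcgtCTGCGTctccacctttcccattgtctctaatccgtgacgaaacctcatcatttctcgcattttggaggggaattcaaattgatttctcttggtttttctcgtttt
cki-1: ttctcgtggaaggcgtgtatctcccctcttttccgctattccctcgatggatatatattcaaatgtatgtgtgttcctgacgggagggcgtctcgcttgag
fzr-1: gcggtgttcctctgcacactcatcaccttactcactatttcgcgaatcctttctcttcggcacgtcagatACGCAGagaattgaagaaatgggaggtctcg

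The site at efl-1 (16958590 to 16965675, minus strand), which encodes the worm E2F factor best known as a partner of LIN-35, lay in the promoter with its summit 221 bp upstream of the 5′ end. Its signal, the authors' peak caller's own value, was 82.96 in the pooled list, 47.3 in replicate 1 and 32.3 in replicate 2. The signal has no stated scale, so replicates were set side by side by rank: this peak lay above 98.998% of candidates in replicate 1 and 98.3% in replicate 2. The IDR was 0.00156 in the pooled list and 0.00784 in replicate 1, and 0.0874 in replicate 2, so the site is in replicate 1's own list and not in replicate 2's. The replicate summits were 248 and 176 bp upstream. In the printed sequence the TTCCCGC match is centred 4 bp upstream of the pooled summit, and the ACGCAG match, on the other strand, 43 bp downstream of it. The nearest 5′ end is that of efl-1 itself, and the next, that of the F-box gene fbxa-90 on the opposite strand, is 918 bp away.

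At lin-35 (chromosome I, 5807709 to 5815637, plus strand), the only retinoblastoma family gene of the worm and a repressor of S-phase entry, the peak (5807319 to 5807608) had its summit 245 bp upstream of the 5′ end. The pooled signal was 90.3, with 46.2 in replicate 1 and 43.9 in replicate 2. Both replicates ranked it high, above 98.9% of candidates in replicate 1 and 99.3% in replicate 2. It was the only one of the 4 sites kept in both replicates' own lists, with an IDR of 0.00374 in replicate 1 and 0.00971 in replicate 2. The summit also lies 173 bp upstream of vps-51, a vesicle tethering gene transcribed the other way, and that 5′ end is the nearer one.

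The gene cye-1 lies on chromosome I, from 6780799 to 6784397 on the plus strand. The stronger of its sites (6781681 to 6781970), with a signal of 125, was in an intron, 1027 bp downstream of the 5′ end of this cyclin E gene, whose product drives entry into S phase. Its summit fell on an annotated tRNA gene in that intron, C37A2.t1, which starts 1004 bp from the cye-1 5′ end and is 72 bp long. Replicate 2 ranked the peak 92nd of 44693 candidates (signal 77.96, IDR 6.46e-05), and replicate 1 ranked it 723rd of 43103 (signal 38.5, IDR 0.0219). It is therefore in replicate 2's own list and not in replicate 1's. Within the peak, 78.8% of 31-base words occur once in the genome, against 100% at the other 3 sites, so part of the sequence is repeated. Of all 856 pooled sites, 79 (9.23%) have their summit on a tRNA gene, with a median signal of 82.2 against 79.9 for all sites. Among the 126 sites within 500 bp of a tRNA gene that had a candidate in both replicates, 60 ranked higher in replicate 2, against 344 of 716 elsewhere. Whether the signal belongs to cye-1 or to the tRNA gene was not tested.

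The weaker cye-1 site (6780107 to 6780396), with a signal of 61.5, was in the promoter, with its summit 547 bp upstream of cye-1 and 101 bp upstream of the divergent gene pqn-21, named for a glutamine- and asparagine-rich domain. Replicate 1 gave it a signal of 39.2, above 98.4% of candidates, and replicate 2 gave 19.3, above 84.95%. The summit was at the same base in both replicates. The IDR was 0.809 in replicate 1 and 0.716 in replicate 2, so neither replicate's own list holds it and, at 0.0552 in the matching ranked list, the authors' conservative list does not either. In replicate 1 its signal was above the 38.5 of the intronic peak, whose IDR was far lower.

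**Figure D2:**
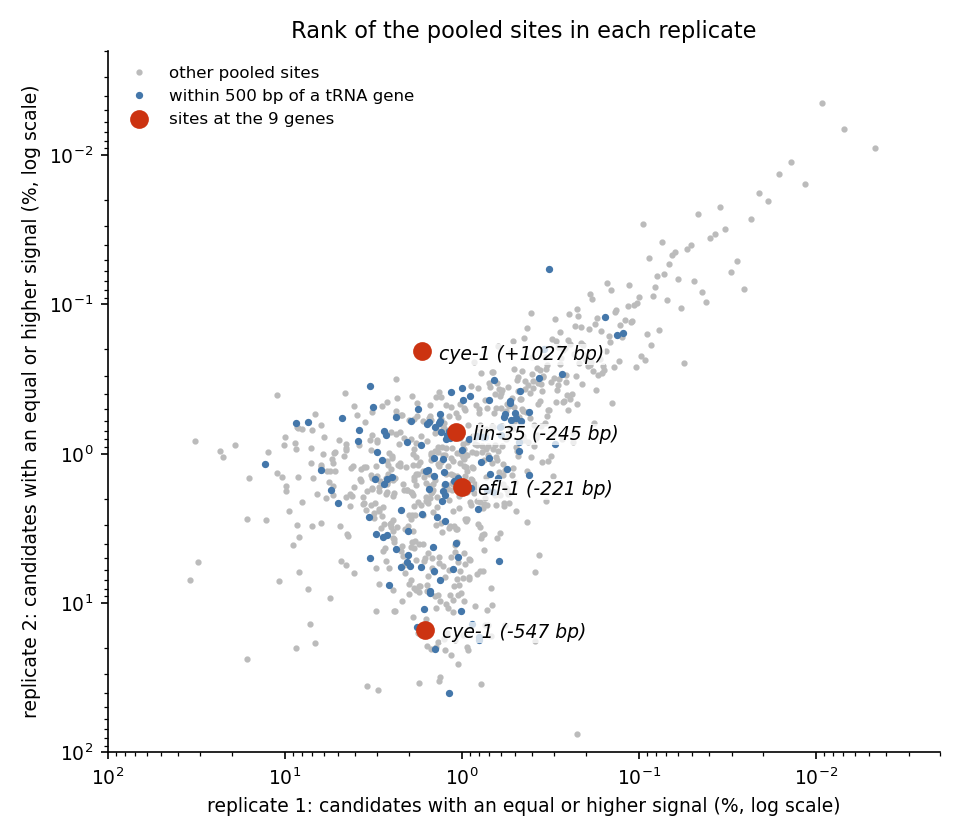
Each point is a pooled site, with the percentage of candidates at or above its signal in replicate 1 on the x axis and in replicate 2 on the y axis, both log scales running towards stronger signal. Only the 842 of 856 sites with a candidate in both replicates are drawn. The lin-35 and efl-1 sites sit within the main cloud. The intronic cye-1 site lies towards its upper edge and the cye-1 promoter site low in it, ranked 723rd and 694th in replicate 1 but 92nd and 6726th in replicate 2. Other sites differ as much between the replicates.

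The 4 sites thus took each of the 4 possible forms of replicate support: lin-35 in both lists, efl-1 in replicate 1's only, the cye-1 tRNA site in replicate 2's only, and the cye-1 promoter site in neither. Among all pooled sites the shares were 31.2% in both, 24.1% in replicate 1 only, 10.5% in replicate 2 only and 34.2% in neither. By pooled signal the 4 ranked 173rd (cye-1 intron), 321st (lin-35), 389th (efl-1) and 715th (cye-1 promoter) of 856, around a median of 79.9. The strongest of them thus lay above 79.8% of all sites and the weakest above 16.5%.

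The 3 promoter sites also had a feature of position in common. Each lay within 1000 bp upstream of 2 protein-coding genes on opposite strands, shared with fbxa-90, vps-51 and pqn-21. Of all pooled sites 103 (12.03%) lie in such a position, which is 27.7% of the 372 sites in promoters. These shares count each site once, whereas a site in this position falls in the windows of 2 genes. Looking up sites by gene therefore favours it. At efl-1 the position rests on the 1000 bp limit, since fbxa-90 is 918 bp away. For lin-35 and the cye-1 promoter the other gene's 5′ end was the nearer one. Assigning each site to the nearest 5′ end alone therefore left cye-1, through its intronic site, and efl-1, while 3.88% of all protein-coding genes had a site by that rule.

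Sequence within 50 bp of the 4 summits differed from site to site. The bases G and C made up 58.4% at the cye-1 promoter, 56.4% at the tRNA site, 46.5% at efl-1 and 31.7% at lin-35, against medians of 49.5% at all pooled sites and 39.6% at candidates. Of 7 motifs searched on both strands, ACGCAG was present at efl-1 alone and GAGAGA at lin-35 and the cye-1 promoter; these letters occur at 17.2% and 21.96% of pooled sites and at 3.07% and 6.95% of candidates. The cye-1 promoter also held ACGCGC and TTCGCGC, which share letters there, and efl-1 held TTCCCGC. Present at 12.5% of pooled sites and 2.13% of candidates was ACGCGC. The motif TTCGCGC, a form of the E2F recognition sequence like the other 7-letter motifs, is present at 2.80% of pooled sites and 0.871% of candidates. For TTCCCGC the shares are 2.69% and 1.42%. GGCGGGA, whose other strand begins with the last 6 letters of TTCCCGC, was found at none of the 4, and AAAAAA likewise. The first is present at 1.52% of pooled sites and 1.02% of candidates, the second at 24.3% and 31.4%, so absence from 4 sites says little. The intronic tRNA site held none of the 7. The motifs were chosen with earlier results of these data known, and base composition differs between sites and candidates. The shares at sites and candidates are therefore a description and no independent test of any motif. A match describes the letters and not a binding event.

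The 6 genes without a site held 41 candidates, with a lowest IDR of 0.155. The gene cki-1 (chromosome II, 7811240 to 7812105, plus strand), encoding a kinase inhibitor needed for cells to stay out of the cycle, had 4 candidates in the pooled ranked list. Its strongest lay in the promoter, 154 bp upstream of the 5′ end, with a signal of 27.2, above 74.1% of all candidates, and an IDR of 0.754. Replicate 1 gave that peak 19.1, above 76.8% of candidates, and replicate 2 gave 9.51, above 20.6%. No candidate lay within the cki-1 gene itself in that list. Its neighbour cki-2 (7816499 to 7820281, plus strand), a second inhibitor of the same family, had 7 candidates, led by one in coding sequence 476 bp downstream of the 5′ end with a signal of 35.6, where replicate 1 gave 22.4 and replicate 2 had no candidate. The lowest IDR at cki-2 was 0.206, at an intronic candidate with a signal of 33.4.

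The Cdh1 gene fzr-1 (chromosome II, 9640156 to 9644466, minus strand), whose product turns on cyclin destruction in G1, had the highest signal of the 6. Its strongest candidate, at 45.7 and with an IDR of 0.269, was 1817 bp upstream and only 695 bp from the 5′ end of sqv-8, a glycosaminoglycan synthesis gene. Replicate 1 gave 18.3 there, above 73.1% of candidates, and replicate 2 gave 24.1, above 94.4%. A further candidate in its coding sequence (38.5 in the pooled list) was found in replicate 2, with a signal of 26.0 above 96.1% of candidates and an IDR of 0.231, and had no overlapping candidate in replicate 1. The strongest candidate of dpl-1 (chromosome II, 9169910 to 9172565, plus strand), which encodes the DP partner of E2F, had a signal of 31.9, in coding sequence, with 11.9 in replicate 1 and 20.2 in replicate 2. The IDR there was 0.699.

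Cyclin D and its kinase, which start the G1 phase programme and which LIN-35 opposes, were likewise without a site. The gene cyd-1 spans 12527 bp (chromosome II, 12980591 to 12993117, plus strand) and has 12 pooled candidates, the strongest (38.5, IDR 0.601) in an intron 10418 bp from the 5′ end, where replicate 1 gave 25.0 and replicate 2 only 7.04. Another intronic candidate at 9289 bp had the lowest IDR of all candidates not kept at the 9 genes, 0.155. The kinase gene cdk-4 (chromosome X, 13515856 to 13518911, minus strand) had 3 candidates, led by one in coding sequence with a signal of 28.9 and an IDR of 0.761, where replicate 1 gave 22.7 and replicate 2 gave 8.70. At cki-1, cyd-1 and cdk-4 replicate 1 thus ranked the strongest candidate higher, and at dpl-1 and fzr-1 replicate 2 did. Over all 9 genes 49 candidates were not kept, with signals of 2.08 to 45.7 and a median of 18.7, against 20.3 over all 64568 pooled candidates not kept. Of the 49, 17 (34.7%) overlapped a candidate in both replicates and 10 (20.4%) in neither, against 30.6% and 18.5% of all candidates not kept. These shares are close to each other, so nothing particular to the 9 genes is read from them.

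**Figure D3:**
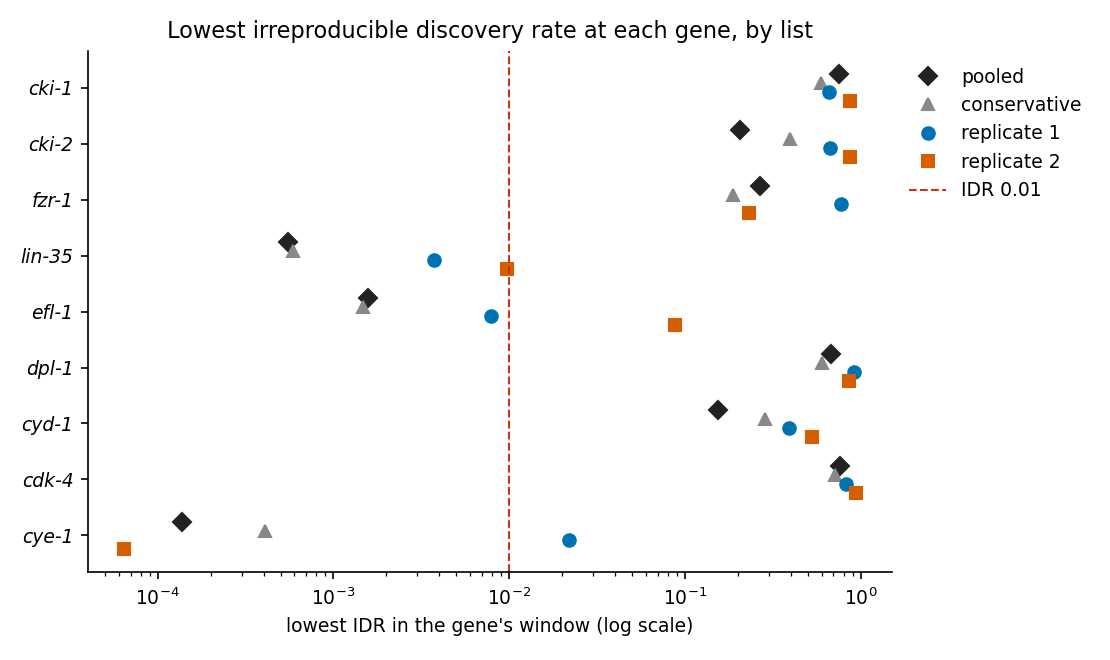
The lowest IDR of any candidate in each gene's window is plotted on a log scale for the pooled, conservative and replicate ranked lists, with the threshold of 0.01 dashed. The markers of lin-35 stay left of the line in all 4 lists, efl-1 crosses it in replicate 2 (0.0874), cye-1 in replicate 1 (0.0219), and the other 6 genes lie right of it throughout.

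Ranked as genes, the 3 with sites were near the top in both replicates and the other 6 were not. A gene with a kept peak will mostly rank high, because the same peaks give both the site and the rank. This split is therefore a description and no separate support for the sites. The strongest candidate of cye-1 exceeded that of 98.9% of protein-coding genes in the pooled list, 96.2% in replicate 1 and 99.5% in replicate 2, counting a gene with no candidate as lower. For lin-35 these shares were 98.0%, 97.3% and 98.2%, and for efl-1 97.7%, 97.5% and 96.1%. For cki-1 they were 49.9%, 64.8% and 24.0%, in the middle of all genes by the pooled list and well below it in replicate 2. The replicates disagreed most at cdk-4 (78.8% in replicate 1, 36.6% in replicate 2), cki-1 and dpl-1 (40.3% and 76.5%). For fzr-1 they were 63.8% and 91.3%, for cyd-1 84.6% and 71.1%, and for cki-2 77.7% and 70.3%. At the 3 genes with sites both replicates lay above 96%, close to the top of the scale, where percentages have little room to differ. Each share uses that list's own strongest candidate, so the replicates may be ranked by different peaks. For cye-1 this was the promoter site in replicate 1 and the intronic site in replicate 2. The peaks also differed at cki-2 (484 and 2059 bp downstream of the 5′ end), dpl-1, fzr-1, cdk-4 and cyd-1. They overlapped at lin-35, efl-1 and cki-1.

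**Figure D4:**
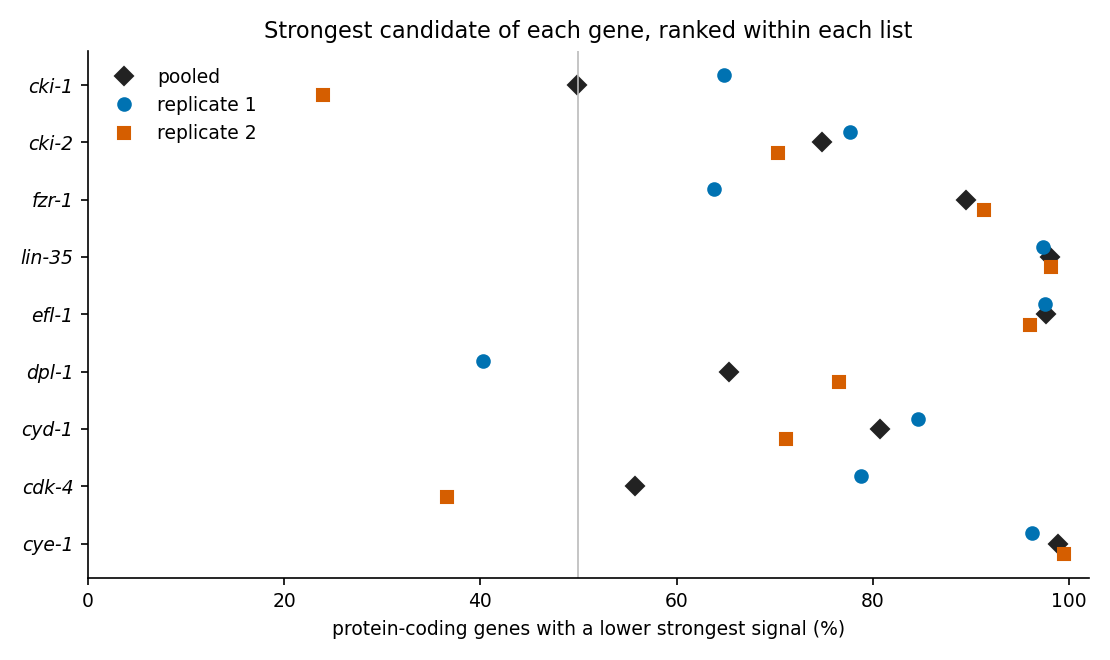
For each gene the x axis gives the percentage of protein-coding genes whose strongest candidate is weaker, in the pooled list and in each replicate. The strongest candidate is taken within each list and can be a different peak. The grey line is at 50%. The 3 markers of lin-35, efl-1 and cye-1 all lie above 96%, while those of cki-1, dpl-1 and cdk-4 straddle 50%.

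The genes differ in size and so in how many candidates they can hold. The windows of the 9 genes had a median of 5783 bp, against 4027 bp for all protein-coding genes, and held a median of 6 candidates against 3. Per kb the medians were closer, 0.826 against 0.648. The gene with the fewest candidates per kb was efl-1 (0.220), which had a site, and that with the most was fzr-1 (1.43), which had none. The median strongest signal was 38.5 for the 9 genes, against 29.9 for protein-coding genes with a candidate, and 7 of the 9 lay above 29.9. Because 29.9 is a median, as many of the genes with a candidate lie above it as below. The genes with a site are among the 7, and a longer window offers more candidates from which the strongest is taken. The count is therefore a description only.

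Of 50 other cell cycle genes, 6 had a site (12%, against 4.61% of all protein-coding genes), and 3 of them encode further subunits of the DREAM complex, the repressor in which LIN-35, EFL-1 and DPL-1 act together. The DREAM group held 6 genes besides those described above. The site at lin-54, the DNA-binding subunit, had a signal of 238 (129 in replicate 1, 108 in replicate 2), that at lin-53, a histone-binding subunit shared with other complexes, 173 (89.5 and 78.9), and that at lin-9 119 (59.5 and 51.9). All 3 were in both replicates' own lists and in the conservative list. They lay 358, 239 and 154 bp upstream, but the nearest 5′ end was that of the ribosomal protein gene rpl-12 at the lin-54 site and that of nra-2 at the lin-53 site, so among these 3 the lin-9 site alone was nearest to its own gene. The other subunit genes lin-37 and lin-52 and the second E2F gene efl-2 had none, with strongest signals of 37.8, 37.3 and 19.5.

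Among 14 replication genes, pcn-1, which encodes the sliding clamp PCNA, had a site with a signal of 173, 272 bp upstream and in both replicates' lists, and the helicase subunit gene mcm-4 had one of 56.8, in neither replicate's list but in the conservative one. Of 10 cyclins and kinases only cdk-7, a kinase that activates other cyclin-dependent kinases, had a site (64.2, 40 bp upstream), with 47.5 in replicate 1 and 18.96 in replicate 2, and it was not in the conservative list. None of the 6 phosphatase and wee kinase genes and none of the 14 ubiquitin ligase genes had one. With a site at 4.61% of all protein-coding genes, groups this small would often hold none. No contrast with the other roles is therefore read from these 2 groups.

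**Figure D5:**
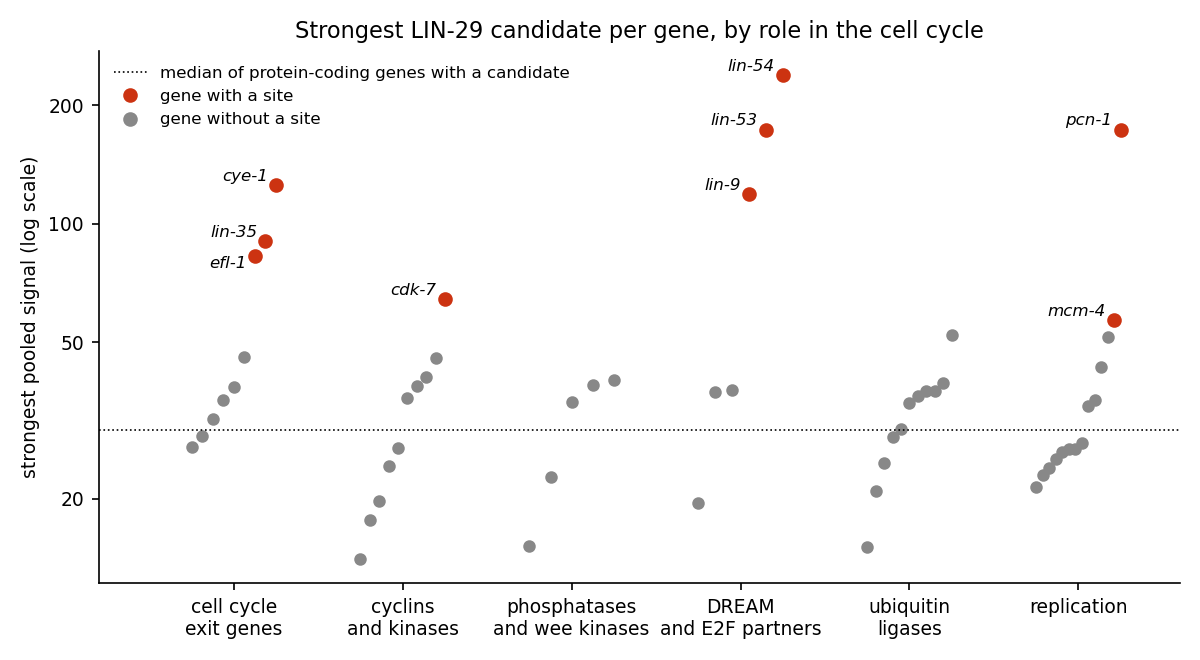
Each point is the strongest pooled signal of a gene (log scale), grouped by role, with the 9 cell cycle exit genes first and genes with a site in red; 4 genes without any pooled candidate are not drawn. The dotted line is the median of protein-coding genes with a candidate, 29.9, and the DREAM genes lin-54 (238), lin-53 (173) and lin-9 (119) stand with pcn-1 (173) among the highest.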

How the data were processed

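The deposited files were 8 peak lists on the ce11 build: each replicate has 1 ranked and 1 thresholded list, and the series has 2 of each made from both replicates' alignments, per the file headers. The aligner and the peak caller, not given in the sources used here, are left unnamed. The deposited signal of a peak comes from the authors' caller, on an unstated scale. The deposited score rises as the IDR falls (830 stands for 0.01), and the deposited −log10 IDR stops at 5. No read counts are held, so depth is unknown. A further 16 columns on the compared inputs were not used. Overlapping peaks were merged into sites (906 into 856 in the pooled list), and candidates in ranked lists were not. A broad candidate region can carry several summits. Gene and tRNA models came from Ensembl release 115, and sequence, the tRNA's name and alternative gene ends from RefSeq. A replicate's value at a pooled peak is that of its strongest overlapping candidate. With 1 group there was no comparison of conditions and no p-value. The assignment was tested on simulated data (Python 3.11.15, pandas 2.3.3). All 9 genes are described, as are those of the 50 others with a site. Genes, lists and motifs were chosen with earlier results of these data known.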

Additional observations from a re-analysis of the deposited data

How the results depend on the processing

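The count of the 9 genes with a site was 3, and ran from 2 to 3 over all alternatives. It was 2 in replicate 1's own list (efl-1 and lin-35), in replicate 2's (cye-1 and lin-35), within 500 bp of the 5′ end (efl-1 and lin-35) and by the nearest 5′ end (cye-1 and efl-1), and 3 in the conservative list, among the stronger 428 sites, at the highest score, at an IDR of up to 0.05, with 1000 bp upstream, by peak overlap, with RefSeq gene ends and, an alternative chosen after seeing the data, with unmerged peaks. For cye-1, replicate 2's own list, the conservative list, the stronger 428 sites and the highest score kept only the intronic tRNA site. The share of all protein-coding genes with a site, 4.61%, ran from 2.22 to 2.94% in the single replicates' lists, and was 2.54% among the stronger 428 sites, 2.08% within 500 bp of the 5′ end and 7.57% at an IDR of up to 0.05. The count of the 50 other cell cycle genes, 6, ran from 4 to 7. The lists that hold each of the 4 sites were the same when sharing meant summits within 100 bp or a reciprocal overlap of 50%. With 100 bp either side of the summit ACGCAG was present at 2 of the 4 sites, and AAAAAA at 1. No paired analysis was possible because there is only 1 group. No depth is known, so it cannot be said what a deeper library would add at the 6 genes without a site.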

Other observations

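Just beyond the threshold lay apc-11, which encodes a subunit of the anaphase-promoting complex and was chosen after its values were seen: the lowest IDR in its window was 0.0203 in the pooled ranked list and 0.0302 in the conservative one, with a strongest signal of 52.2 (27.5 in replicate 1 and 23.6 in replicate 2). The kinase partner of cyclin E, cdk-2, had a strongest signal of 24.2 and no candidate in replicate 2.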
